A study of Homo sapiens with 12 samples.

Results

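Stress granules are cytoplasmic condensates of untranslated mRNA and RNA-binding proteins that form when translation initiation is blocked, most often through phosphorylation of eIF2 alpha. The G3BP proteins bind RNA and one another and nucleate the granule, CAPRIN1 binds G3BP and promotes condensation, USP10 binds the same site on G3BP and opposes it, and the TIA, FMR1, ATXN2, UBAP2L and ELAVL1 proteins are granule components that bind mRNA or the G3BP network. The mRNAs of these stress granule core RNA-binding proteins were followed here in the cytoplasm of cells in which mRNA export factors were knocked down. The members were 10 genes, G3BP1, G3BP2, CAPRIN1, TIA1, TIAL1, USP10, ATXN2, UBAP2L, FMR1 and ELAVL1, and they were taken as every probe whose accession maps to one of them in RefSeq. This gave 17 probes out of 34127 on the array. All 17 passed the filter on dim probes, as did 25879 of the 34127, and each of the 17 was well above background on all 12 arrays.

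Human U2OS cells, an osteosarcoma line, received 20 nM of control siRNA or of siRNA against DBP5, GLE1 or IPPK with Lipofectamine2000, and were cultured for 48 h where the methods describe the RNA work. DBP5 (gene DDX19B) is an RNA helicase at the cytoplasmic face of the nuclear pore, GLE1 is its activator, and IPPK makes inositol hexakisphosphate, the cofactor of that activation. RNA of the fraction released by NP40 lysis was hybridised to 12 one-colour Agilent arrays, 3 per siRNA, described as 3 independent array experiments. Array values are normalized log2 intensities, so a difference of 1 is a 2-fold change relative to the other mRNAs in the same fraction, and a change in the total amount of cytoplasmic mRNA does not show. In bulk RNA, fewer cells of one state and less RNA per cell cannot be told apart, and the level of one probe is never set against that of another.

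Between 70.9% and 77.7% of probes were well above background on an array, lowest on IPPK siRNA replicates 1 and 3, and 0 spots were saturated. The knock-downs matched their labels, since DDX19B was 15.6-fold lower after DBP5 siRNA, GLE1 9.77-fold lower after GLE1 siRNA and IPPK 5.38-fold lower after IPPK siRNA at one probe and 2.02-fold lower at the other. DDX19B was also 2.01-fold lower after GLE1 siRNA, and IPPK 2.39-fold lower after DBP5 siRNA at the first of these probes and 1.71-fold lower at the second. After IPPK siRNA, GLE1 was 1.40-fold and DDX19B 1.15-fold lower (limma, adjusted p = 0.0185 and 0.0133). The second IPPK probe was 2.11-fold higher after GLE1 siRNA, where the first was 1.20-fold lower. Of 6 mesenchymal and osteosarcoma markers, VIM, COL1A1, SPARC, FN1 and RUNX2 were well above background on all 12 arrays, and COL1A2 was so on 0 of 3 arrays after DBP5 siRNA and 0 of 3 after IPPK siRNA. Mean log2 intensity in control and after IPPK siRNA was 12.56 and 10.58 for COL1A1 and 7.75 and 7.04 for RUNX2. It was 17.84 and 17.89 for VIM, 12.91 and 12.70 for SPARC, and 6.04 and 5.84 for FN1. Of 6 markers of other cell types, EPCAM and PTPRC were well above background on all 12 arrays, and each of CDH1, CD3E and ALB on some of them. CDH1 was so on 0 of 3 control arrays and 3 of 3 GLE1 siRNA arrays (mean log2 intensity 3.50 and 6.79). Of 5 nuclear-retained RNAs, MALAT1, KCNQ1OT1 and MEG3 were on the array, and all 3 were well above background on all 12 arrays. MALAT1 was 2.12-fold lower after IPPK siRNA (limma, adjusted p = 0.00372), and KCNQ1OT1 was 1.59-fold, 1.85-fold and 1.17-fold higher after DBP5, GLE1 and IPPK siRNA. MEG3 was 1.27-fold higher after GLE1 siRNA (limma, adjusted p = 0.00893) and passed in neither other knock-down. The part of the CDH1 signal and of nuclear RNA in the results below was not tested.

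The siRNAs that define the groups are shown by their antisense strands, 5′ to 3′, with bases 2 to 8 in capitals. The study lists 5 such strands against the 3 factors, 21 to 27 bases long. Bases 2 to 8 differ among all 5. Whether these bases are the seed that pairs with a target in the cell was not tested. The sources used here do not say which numbered siRNA against GLE1 or IPPK was used for the arrays.
DBP5 #1: aGCCUCAUccagaacaaacaccuugau
GLE1 #1: uUCUCUUGgugucccaaggcuucuc
GLE1 #2: gUUGAGAAucuuugcucugugacggug
IPPK #1: uUGCUGAUcugcuuccacuucccaguu
IPPK #2: aAUAAACCcacauuuuggcuu

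**Figure D1:**
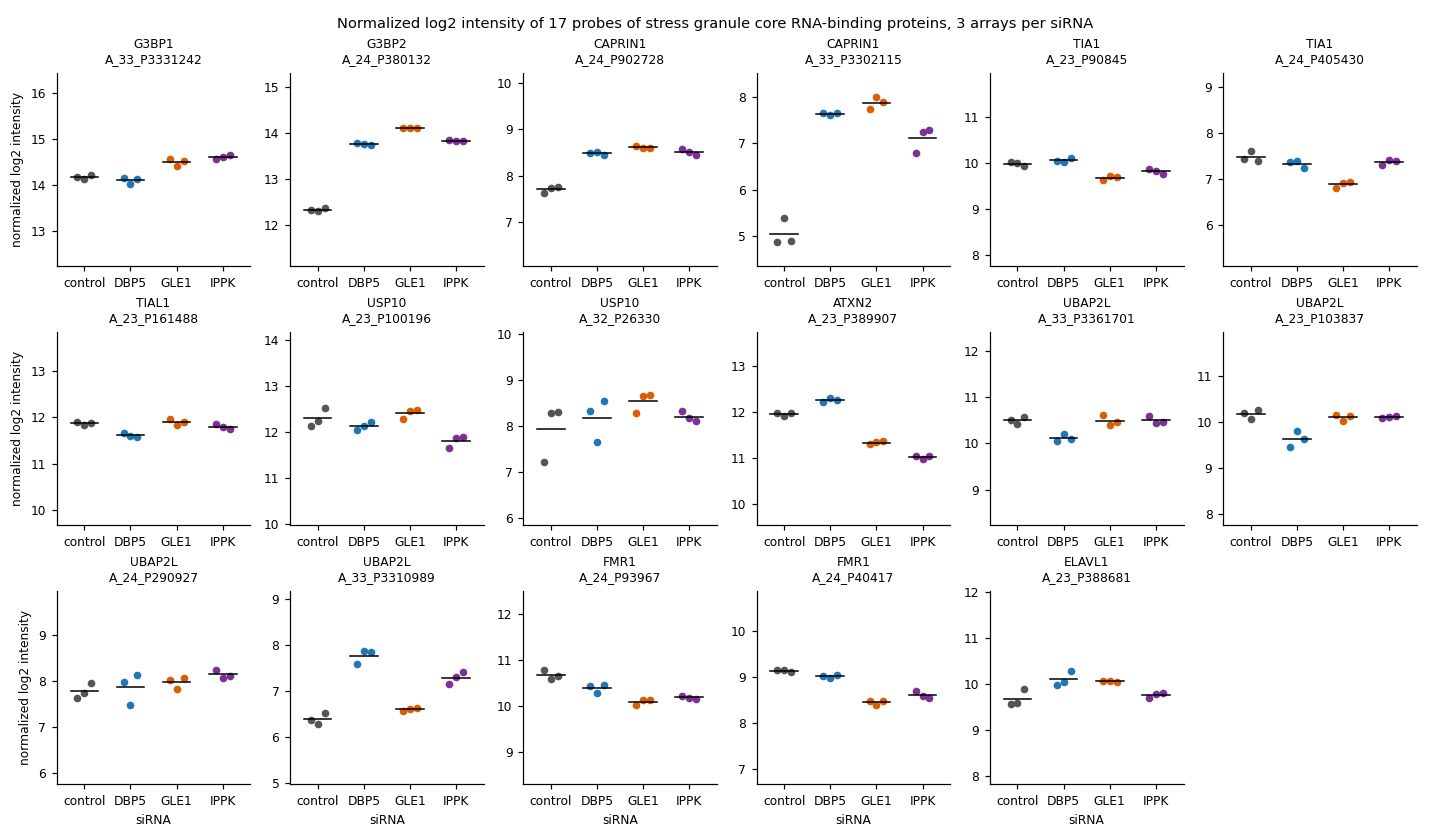
Normalized log2 intensity (vertical axes, each spanning the same number of log2 units) of the 17 member probes by siRNA (horizontal axes), with 1 point per array in replicate order and a line at the mean of 3. G3BP2 and both CAPRIN1 probes lie higher on all knock-down arrays than on all control arrays, and ATXN2 lies higher after DBP5 siRNA and lower after GLE1 and IPPK siRNA.

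Among the members, 2 genes, G3BP2 and CAPRIN1, rose at every probe in all 3 knock-downs, and FMR1 was lower in all 3 at 1 of its 2 probes. ATXN2 rose after DBP5 siRNA and fell after the other siRNAs. After DBP5 siRNA 6 of 17 probes were higher and 4 lower than in control (limma, adjusted p under 0.05), where 27.6% and 27% of all 25879 probes were called higher and lower. After GLE1 siRNA 5 were higher and 5 lower, beside 32.5% and 30.1% of all probes. After IPPK siRNA 5 were higher and 5 lower, beside 27.3% and 27.9% of all probes. These shares are near those of the whole array, so the number of members called is no result about the members. The 3 comparisons used the same 3 control arrays. Of the 17 probes, 3 were called higher in all 3 comparisons (13.6% of all probes), 1 lower in all 3 (12%) and 1 higher in at least 1 and lower in at least 1 (14.1%).

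With a change of at least 1.5-fold added, 4 member probes were higher and 0 lower after DBP5 siRNA, against 13.1% and 11.9% of all probes. After GLE1 siRNA 3 were higher and 4 lower, against 17.1% and 16.9%. The 4 lower probes, of TIA1, ATXN2 and FMR1, became 2 with normexp, with the processed values of the authors or without GLE1 replicate 1. Without control replicate 2 or DBP5 replicate 2, 1 probe (UBAP2L A_23_P103837) was lower after DBP5 siRNA. After IPPK siRNA 4 were higher and 1 lower, against 13.3% and 12.6%. The median log2 difference of the 17 probes from control was 0.077 in the DBP5 knock-down, 0.11 in the GLE1 knock-down and 0.0040 in the IPPK knock-down, where the medians of all probes were -0.015, 0.033 and -0.024. The median size of the change, without its sign, was 0.28, 0.38 and 0.44 for the members and 0.30, 0.38 and 0.31 for all probes.

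**Figure D2:**
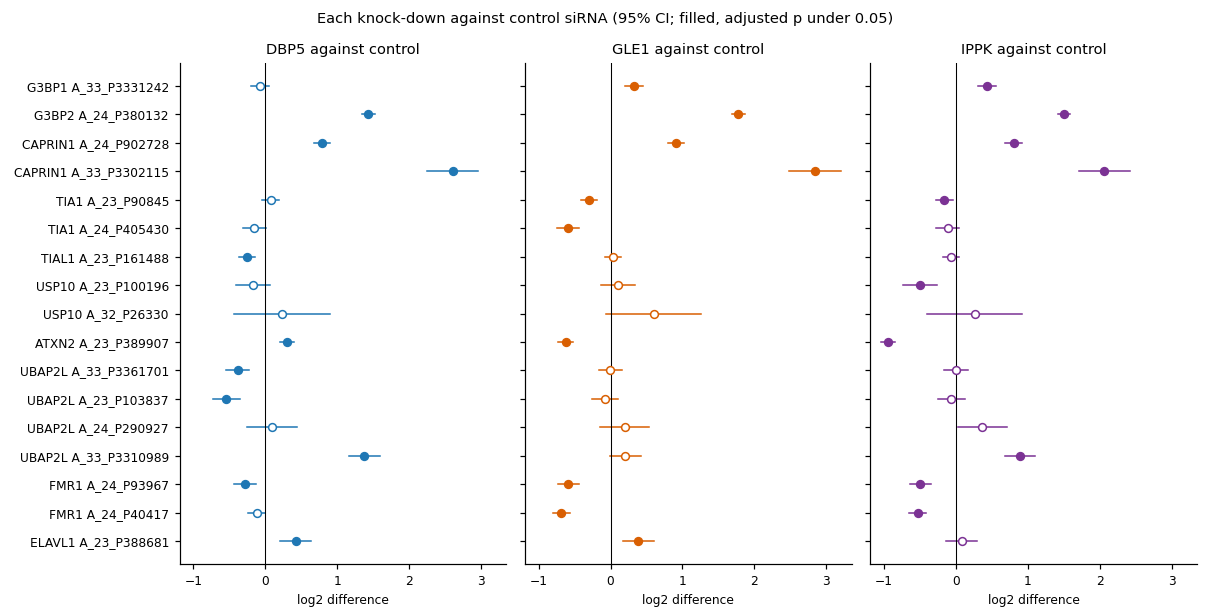
Log2 difference from control siRNA (horizontal axes) of the 17 member probes (vertical axis) after DBP5, GLE1 and IPPK siRNA, with the 95% confidence interval of limma as a line and filled points at an adjusted p under 0.05. The G3BP2 point lies at 1.43, 1.78 and 1.50, the dim CAPRIN1 probe at 2.60, 2.84 and 2.07, and ATXN2 on opposite sides of 0.

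G3BP2 codes for the paralog of G3BP1 that can nucleate granules in its absence. Its probe A_24_P380132 read 12.31, 12.31 and 12.36 on the 3 control arrays. It read 13.78, 13.75 and 13.74 after DBP5 siRNA, 14.10, 14.10 and 14.10 after GLE1 siRNA, and 13.84, 13.83 and 13.82 after IPPK siRNA. All 9 knock-down arrays lay above all control arrays, and the arrays of each siRNA lay close together. G3BP2 was thus 2.70-fold higher after DBP5 siRNA (log2 difference 1.43 ± 0.039, SE, limma adjusted p = 2.65e-09). It was 3.43-fold higher after GLE1 siRNA (1.78 ± 0.039, adjusted p = 3.15e-10) and 2.83-fold higher after IPPK siRNA (1.50 ± 0.039, adjusted p = 1.53e-09). Within the 3 slides, each of which held 1 array per siRNA, the difference ran from 1.38 to 1.47, from 1.75 to 1.79 and from 1.46 to 1.52.

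G3BP1, the principal nucleator of the granule, moved less. Probe A_33_P3331242 read 14.17, 14.13 and 14.22 in control and 14.14, 14.03 and 14.14 after DBP5 siRNA, and these groups overlapped. It read 14.55, 14.42 and 14.51 after GLE1 siRNA and 14.57, 14.60 and 14.65 after IPPK siRNA, above all control arrays. The rise was 1.25-fold after GLE1 siRNA (0.32 ± 0.055, adjusted p = 0.000445) and 1.35-fold after IPPK siRNA (0.44 ± 0.055, adjusted p = 6.45e-05), with within-slide differences of 0.29 to 0.38 and 0.40 to 0.48. After DBP5 siRNA the difference was -0.07 (95% CI -0.19 to 0.054, adjusted p = 0.329).

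CAPRIN1, which binds G3BP and favours condensation, was read by 2 probes assigned to different transcripts. Probe A_24_P902728 read 7.63, 7.72 and 7.75 in control, 8.49, 8.52 and 8.45 after DBP5 siRNA, 8.64, 8.59 and 8.59 after GLE1 siRNA, and 8.57, 8.50 and 8.44 after IPPK siRNA. All knock-down arrays lay above all control arrays, and the 3 knock-downs lay close together. The rise was 1.72-fold (0.79 ± 0.052, adjusted p = 5.18e-07), 1.88-fold (0.91 ± 0.052, adjusted p = 9.50e-08) and 1.75-fold (0.80 ± 0.052, adjusted p = 3.89e-07) after DBP5, GLE1 and IPPK siRNA. Within slides it ran from 0.70 to 0.86, from 0.85 to 1.01 and from 0.69 to 0.94.

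The second CAPRIN1 probe, A_33_P3302115, was dim on the control arrays. It read 4.86, 5.39 and 4.87 in control, 7.66, 7.61 and 7.66 after DBP5 siRNA, 7.74, 8.02 and 7.89 after GLE1 siRNA, and 6.79, 7.24 and 7.30 after IPPK siRNA. Again no knock-down array overlapped the control. The fitted rise was 6.08-fold (2.60 ± 0.16, adjusted p = 3.47e-07), 7.17-fold (2.84 ± 0.16, adjusted p = 9.65e-08) and 4.19-fold (2.07 ± 0.16, adjusted p = 1.64e-06), and within slides it ran from 2.22 to 2.80, 2.63 to 3.02 and 1.85 to 2.42. The size of this rise depended on the background correction. With normexp it was 1.33, 1.45 and 1.03 on the log2 scale, and with the processed values of the authors 1.31, 1.42 and 1.02.

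The genomic sequence just before the start of these genes, which rose in all 3 knock-downs, is shown from RefSeq (GRCh38.p14), 250 bases on the strand of the gene, 5′ to 3′. Capitals mark matches, on either strand, to the GC box GGGCGG and the ETS motif CCGGAAG. Of the several G3BP2 starts, the one farthest upstream in the main cluster is shown, on the minus strand at chr4:75673596-75673845. The CAPRIN1 sequence is on the plus strand at chr11:34051481-34051730.
G3BP2: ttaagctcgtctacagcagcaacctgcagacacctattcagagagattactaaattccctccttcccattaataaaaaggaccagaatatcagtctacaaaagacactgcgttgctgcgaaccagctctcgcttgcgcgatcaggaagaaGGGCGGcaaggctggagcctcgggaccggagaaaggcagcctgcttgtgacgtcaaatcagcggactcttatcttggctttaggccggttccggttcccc
CAPRIN1: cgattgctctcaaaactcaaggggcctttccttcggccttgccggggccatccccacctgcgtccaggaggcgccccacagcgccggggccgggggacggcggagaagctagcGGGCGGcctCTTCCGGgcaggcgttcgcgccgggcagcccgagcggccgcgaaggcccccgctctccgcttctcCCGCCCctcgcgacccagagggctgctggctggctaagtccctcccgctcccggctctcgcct

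The G3BP2 window held 1 GC box, and the CAPRIN1 window held 2 GC boxes and 1 ETS motif. Over 34943 promoter windows of the same length, 42.5% held a GC box and 8.48% an ETS motif. Both windows lacked the letters TATAAA and CCAAT, which 10.8% and 32.0% of all windows held. The table listed 15 windows for 8 of the 10 members, all but ATXN2 and ELAVL1. At least 1 window held a GC box in 6 of these 8 genes and an ETS motif in 2, CAPRIN1 and USP10, where 46.1% and 10.2% of 27167 genes had such a window. Genes with several windows have more chances of a match. CCAAT was found for G3BP1 and G3BP2, and TATAAA for TIA1.

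USP10, a deubiquitinase that competes with CAPRIN1 for G3BP, passed the threshold against control in 1 comparison, at 1 of its 2 probes. Probe A_23_P100196 read 12.15, 12.25 and 12.52 in control, 12.05, 12.14 and 12.22 after DBP5 siRNA, 12.28, 12.46 and 12.49 after GLE1 siRNA, and 11.66, 11.87 and 11.89 after IPPK siRNA. The IPPK siRNA arrays lay below all control arrays, and the other groups overlapped the control. USP10 was 1.41-fold lower after IPPK siRNA (-0.50 ± 0.11, adjusted p = 0.00218), and within slides the difference ran from -0.63 to -0.38. A paired t-test by replicate number, which the methods name but not for the arrays, gave an adjusted p of 0.0521. After GLE1 siRNA it was 0.11 (95% CI -0.13 to 0.34, adjusted p = 0.42). After DBP5 siRNA it was -0.17 (95% CI -0.40 to 0.067, adjusted p = 0.212), which passed the threshold with the replicate number as a block (adjusted p = 0.0360).

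The other USP10 probe, A_32_P26330, passed the threshold in no comparison. One control array stood apart, with 7.22 in replicate 1 against 8.28 and 8.29 in the others. The knock-down arrays read 8.31, 7.64 and 8.53 after DBP5 siRNA, 8.27, 8.65 and 8.67 after GLE1 siRNA, and 8.32, 8.16 and 8.10 after IPPK siRNA. The differences from control were 0.23, 0.60 and 0.26 with all arrays (adjusted p = 0.559, 0.106 and 0.494, limma) and -0.12, 0.24 and -0.094 without control replicate 1. The 95% CI of the 3 differences with all arrays ran from -0.43 to 0.89, from -0.064 to 1.26 and from -0.40 to 0.92.

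UBAP2L, a granule component that binds G3BP and is needed for granule assembly in several cell types, gave different answers at its 4 probes. Probes A_33_P3361701 and A_23_P103837, which share one transcript in the array design, passed the threshold after DBP5 siRNA alone among the comparisons with control. The first read 10.51, 10.42 and 10.58 in control and 10.05, 10.20 and 10.10 after DBP5 siRNA, with no overlap. The second read 10.19, 10.08 and 10.27 in control and 9.47, 9.80 and 9.65 after DBP5 siRNA, again with no overlap. They were 1.31-fold lower (-0.39 ± 0.074, adjusted p = 0.00115) and 1.45-fold lower (-0.54 ± 0.083, adjusted p = 0.000247). Within slides the falls ran from -0.48 to -0.22 and from -0.72 to -0.28. With the methods' paired t-test both calls were lost after adjustment (adjusted p = 0.0992 and 0.117), and the second also before it. After GLE1 and IPPK siRNA both probes overlapped the control, with differences between -0.073 and 0.0040 and adjusted p from 0.48 to 0.984 (limma).

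The other UBAP2L probes were assigned to a second transcript, and 1 of them moved the opposite way. Probe A_33_P3310989 read 6.38, 6.29 and 6.53 in control, 7.59, 7.88 and 7.86 after DBP5 siRNA, 6.57, 6.61 and 6.64 after GLE1 siRNA, and 7.16, 7.31 and 7.41 after IPPK siRNA. It was higher than all control arrays on all 9 knock-down arrays. The rise was 2.60-fold after DBP5 siRNA (1.38 ± 0.096, adjusted p = 7.93e-07) and 1.86-fold after IPPK siRNA (0.90 ± 0.096, adjusted p = 1.82e-05), with within-slide values of 1.21 to 1.59 and 0.79 to 1.02. After GLE1 siRNA the difference was 0.21 (95% CI -0.0066 to 0.42, adjusted p = 0.0852), which passed with the replicate block (adjusted p = 0.0338), with the 75th percentile scaling (0.0343), normexp (0.0130) or the processed values of the authors (0.00899), with the 6 arrays compared alone (0.0496) and without control replicate 3 (0.0420). Probe A_24_P290927 passed in no comparison of the fit of all arrays without a block, with differences of 0.093, 0.20 and 0.37 after DBP5, GLE1 and IPPK siRNA. The last of these passed with the block (adjusted p = 0.0252), with normexp (0.0361) or the processed values of the authors (0.0486), with the 6 arrays compared alone (0.0212) and without control replicate 3 (0.0438).

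ATXN2, a poly(A)-binding-protein partner that sets granule number in several cell types, was read by probe A_23_P389907. It read 11.99, 11.92 and 11.98 in control. It read 12.23, 12.31 and 12.27 after DBP5 siRNA, 11.31, 11.34 and 11.37 after GLE1 siRNA, and 11.04, 10.99 and 11.04 after IPPK siRNA. The 4 groups did not overlap, in the order DBP5, control, GLE1 and IPPK from high to low. ATXN2 was 1.23-fold higher after DBP5 siRNA (0.30 ± 0.044, adjusted p = 0.000169). It was 1.54-fold lower after GLE1 siRNA (-0.63 ± 0.044, adjusted p = 4.80e-07) and 1.92-fold lower after IPPK siRNA (-0.94 ± 0.044, adjusted p = 4.13e-08). Within slides the differences were 0.24 to 0.38, -0.68 to -0.58 and -0.95 to -0.93. The rise after DBP5 siRNA did not pass the methods' paired t-test (adjusted p = 0.0617).

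FMR1, the translational repressor lost in fragile X syndrome, was lower at both probes after GLE1 and IPPK siRNA. Probe A_24_P93967 read 10.79, 10.59 and 10.66 in control, 10.43, 10.29 and 10.47 after DBP5 siRNA, 10.02, 10.13 and 10.12 after GLE1 siRNA, and 10.22, 10.17 and 10.16 after IPPK siRNA. No knock-down array overlapped the control. The fall was 1.22-fold (-0.28 ± 0.067, adjusted p = 0.00443), 1.50-fold (-0.59 ± 0.067, adjusted p = 2.08e-05) and 1.41-fold (-0.49 ± 0.067, adjusted p = 0.000109), and within slides it ran from -0.36 to -0.19, -0.77 to -0.46 and -0.57 to -0.41. After DBP5 and GLE1 siRNA the call was lost with the methods' paired t-test (adjusted p = 0.0799 and 0.0509).

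Probe A_24_P40417 of FMR1 read 9.16, 9.16 and 9.11 in control, 9.02, 8.99 and 9.05 after DBP5 siRNA, 8.49, 8.40 and 8.49 after GLE1 siRNA, and 8.70, 8.59 and 8.56 after IPPK siRNA. All knock-down arrays again lay below all control arrays. It was 1.61-fold lower after GLE1 siRNA (-0.68 ± 0.053, adjusted p = 9.57e-07) and 1.44-fold lower after IPPK siRNA (-0.53 ± 0.053, adjusted p = 1.06e-05), with within-slide values of -0.76 to -0.62 and -0.57 to -0.46. After DBP5 siRNA the difference was -0.12 (95% CI -0.24 to -0.0043) and did not pass (adjusted p = 0.0756).

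TIA1 and TIAL1 code for related proteins with a prion-like domain that carry stalled initiation complexes into the granule. TIA1 probe A_23_P90845 read 10.03, 10.00 and 9.93 in control, 10.05, 10.03 and 10.11 after DBP5 siRNA, 9.63, 9.72 and 9.71 after GLE1 siRNA, and 9.88, 9.83 and 9.76 after IPPK siRNA. The GLE1 and IPPK siRNA arrays lay below all control arrays. It was 1.23-fold lower after GLE1 siRNA (-0.30 ± 0.052, adjusted p = 0.000490), with within-slide values of -0.40 to -0.22 and an adjusted p of 0.0574 in the methods' paired t-test. The difference after DBP5 siRNA was 0.077 (95% CI -0.039 to 0.19, adjusted p = 0.248). The fall after IPPK siRNA was 1.12-fold (-0.16 ± 0.052, adjusted p = 0.0235) and lay between -0.17 and -0.15 within slides. It no longer passed without control replicate 1 (adjusted p = 0.0840) or 2 (0.0595), without IPPK replicate 2 (0.0568) or 3 (0.0969), or with the 6 arrays compared alone (0.0501).

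The second TIA1 probe, A_24_P405430, read 7.44, 7.61 and 7.38 in control, 7.36, 7.38 and 7.23 after DBP5 siRNA, 6.81, 6.92 and 6.93 after GLE1 siRNA, and 7.30, 7.41 and 7.39 after IPPK siRNA. It passed the threshold after GLE1 siRNA alone, 1.51-fold lower (-0.59 ± 0.071, adjusted p = 3.19e-05), and by -0.69 to -0.45 within slides. The difference was -0.15 after DBP5 siRNA (95% CI -0.31 to 0.0057, adjusted p = 0.0961, and 0.0368 with the 75th percentile scaling) and -0.11 after IPPK siRNA (95% CI -0.27 to 0.048, adjusted p = 0.22). Both TIA1 probes thus fell after GLE1 siRNA, while the smaller fall after IPPK siRNA was called at 1 of them.

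TIAL1 probe A_23_P161488 read 11.90, 11.84 and 11.88 in control, 11.65, 11.61 and 11.57 after DBP5 siRNA, 11.96, 11.84 and 11.91 after GLE1 siRNA, and 11.85, 11.79 and 11.76 after IPPK siRNA. The DBP5 siRNA arrays alone lay apart from the control, all below it. The fall was 1.20-fold (-0.26 ± 0.050, adjusted p = 0.00116), and within slides it ran from -0.30 to -0.23. The differences after GLE1 and IPPK siRNA were 0.031 (95% CI -0.080 to 0.14, adjusted p = 0.629) and -0.072 (95% CI -0.18 to 0.040, adjusted p = 0.257).

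ELAVL1 codes for HuR, which stabilises mRNAs with AU-rich elements and enters granules under stress. Probe A_23_P388681 read 9.57, 9.59 and 9.88 in control, 9.98, 10.04 and 10.29 after DBP5 siRNA, 10.07, 10.08 and 10.05 after GLE1 siRNA, and 9.71, 9.79 and 9.79 after IPPK siRNA. The DBP5 and GLE1 siRNA arrays lay above all control arrays, and the IPPK siRNA arrays overlapped them. It was 1.34-fold higher after DBP5 siRNA (0.42 ± 0.096, adjusted p = 0.00354) and 1.30-fold higher after GLE1 siRNA (0.38 ± 0.096, adjusted p = 0.00507). Within slides the rise ran from 0.40 to 0.45 and from 0.17 to 0.50. The second rise did not pass the methods' paired t-test, before adjustment or after it (adjusted p = 0.112). After IPPK siRNA it was 0.083 (95% CI -0.13 to 0.30, adjusted p = 0.502).

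Whether the members answered differently to the 3 siRNAs was tested by comparing the knock-downs with one another in the same fit. Of the 17 probes, 12 differed between GLE1 and DBP5 siRNA, 9 between GLE1 and IPPK siRNA and 12 between DBP5 and IPPK siRNA, where 54.8%, 60.8% and 49% of all probes did. Past 1.5-fold, ATXN2 and UBAP2L A_33_P3310989 were lower after GLE1 than after DBP5 siRNA. UBAP2L A_33_P3310989 was also lower after GLE1 than after IPPK siRNA, and CAPRIN1 A_33_P3302115 and USP10 A_23_P100196 were higher. With the processed values of the authors these GLE1 and IPPK differences were -0.47, 0.39 and 0.53 on the log2 scale, all under 1.5-fold and past the threshold. ATXN2 was 2.37-fold higher after DBP5 than after IPPK siRNA.

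**Figure D3:**
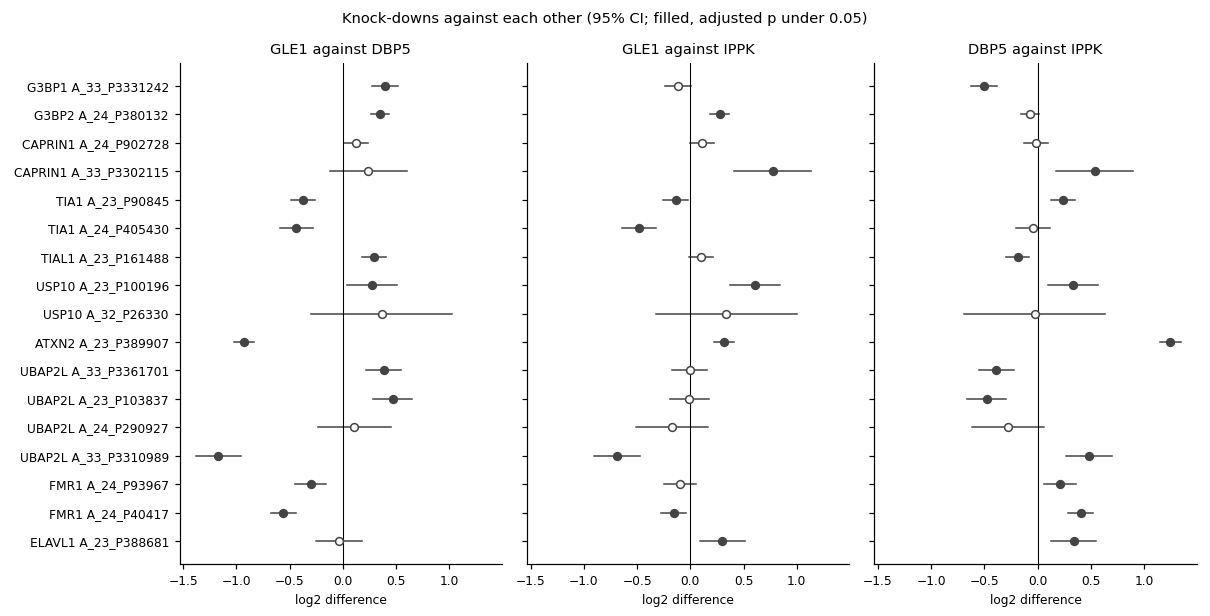
Log2 difference between knock-downs (horizontal axes; GLE1 minus DBP5, GLE1 minus IPPK, DBP5 minus IPPK) of the 17 member probes (vertical axis), with the 95% confidence interval of limma as a line and filled points at an adjusted p under 0.05. ATXN2 lies at -0.93, 0.32 and 1.25, and UBAP2L A_33_P3310989 at -1.17, -0.69 and 0.48.

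For G3BP2 the order of levels was GLE1, IPPK, DBP5 and control from high to low. GLE1 lay above DBP5 (0.35 ± 0.039, adjusted p = 2.71e-05) and above IPPK (0.28 ± 0.039, adjusted p = 0.000123), and DBP5 and IPPK did not differ past the threshold (-0.071, 95% CI -0.16 to 0.016, adjusted p = 0.166). Within slides this last difference ran from -0.081 to -0.060, and it passed the methods' paired t-test (adjusted p = 0.0466). For CAPRIN1 A_24_P902728 the 3 knock-downs did not differ past the threshold, with differences of 0.12, 0.11 and -0.017 (adjusted p = 0.0643, 0.0979 and 0.821, limma). The dim CAPRIN1 probe was lower after IPPK than after GLE1 siRNA (0.77 for GLE1 minus IPPK, adjusted p = 0.00179) and DBP5 siRNA (0.54 for DBP5 minus IPPK, adjusted p = 0.0187). That last difference no longer passed without IPPK replicate 1 (0.38, adjusted p = 0.0662). With normexp the 2 differences of this probe were 0.42 and 0.30, and with the processed values of the authors 0.39 and 0.29. The GLE1 and IPPK difference of A_24_P902728 passed with quantile normalization (adjusted p = 0.0494) and normexp (0.0358).

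For G3BP1, GLE1 and IPPK siRNA lay above DBP5 siRNA (0.39 ± 0.055, adjusted p = 0.000141, for GLE1 minus DBP5, and -0.51 ± 0.055, adjusted p = 3.10e-05, for DBP5 minus IPPK), and GLE1 and IPPK did not differ past the threshold (-0.11, 95% CI -0.24 to 0.0096, adjusted p = 0.101), though normexp gave an adjusted p of 0.0489. For ATXN2 all neighbours in the order of levels differed, with GLE1 above IPPK by 0.32 ± 0.044 (adjusted p = 0.000105). For TIAL1, DBP5 siRNA lay below GLE1 siRNA (0.29 for GLE1 minus DBP5, adjusted p = 0.000545) and below IPPK siRNA (-0.19 for DBP5 minus IPPK, adjusted p = 0.00952). With normexp the latter was lost (-0.13, adjusted p = 0.0668), and GLE1 siRNA lay above IPPK siRNA (0.13, adjusted p = 0.0492), which it did not past the threshold otherwise (0.10, adjusted p = 0.101). For ELAVL1, DBP5 and GLE1 siRNA did not differ past the threshold (-0.037, 95% CI -0.25 to 0.18, adjusted p = 0.781) and both lay above IPPK siRNA (0.34 and 0.30, adjusted p = 0.0140 and 0.0196, limma). Without DBP5 replicate 3, the first of these had an adjusted p of 0.0512, and the second had 0.0506 without GLE1 replicate 2 and 0.0598 without IPPK replicate 1.

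For FMR1, GLE1 siRNA lay below DBP5 siRNA at both probes (-0.30, adjusted p = 0.00285, at A_24_P93967, and -0.56, adjusted p = 6.70e-06, at A_24_P40417). GLE1 lay below IPPK siRNA at A_24_P40417 (-0.16, adjusted p = 0.0248), and was -0.096 (adjusted p = 0.244) at the other probe, which passed with the processed values of the authors (-0.18, adjusted p = 0.0240). The call at A_24_P40417 was lost without GLE1 replicate 2 (adjusted p = 0.0990) or IPPK replicate 1 (0.0908), with the 75th percentile scaling (0.0830), with normexp (-0.097, adjusted p = 0.102) and with only the 6 arrays compared (0.0575). DBP5 lay above IPPK siRNA by 0.41 at A_24_P40417 (adjusted p = 0.000101) and by 0.21 at A_24_P93967 (adjusted p = 0.0254). The latter was lost without DBP5 replicate 1 (adjusted p = 0.0632) or 3 (0.0870) and without IPPK replicate 2 (0.0691) or 3 (0.0739), with quantile normalization (0.0568) and with the processed values of the authors (0.13, adjusted p = 0.112). For TIA1, GLE1 siRNA lay below DBP5 siRNA at both probes (-0.38, adjusted p = 0.000122, and -0.44, adjusted p = 0.000385) and below IPPK siRNA at A_24_P405430 (-0.48, adjusted p = 0.000170). At A_24_P405430 these differences were -0.27 and -0.31 with normexp and -0.29 and -0.29 with the processed values of the authors, all past the threshold. At A_23_P90845 the GLE1 and IPPK difference was -0.14 (adjusted p = 0.0401), and it did not pass with the replicate block (adjusted p = 0.0545), with no filter (0.0572) or with the 6 arrays compared alone (0.0612). It was also lost without each GLE1 array in turn (0.0550 to 0.128) and without IPPK replicate 1 (0.126) or 2 (0.0966). For USP10 A_23_P100196, IPPK siRNA was lowest, 1.52-fold below GLE1 siRNA (adjusted p = 0.000540, limma) and 1.26-fold below DBP5 siRNA (adjusted p = 0.0243, limma). The latter was lost without DBP5 replicate 2 (adjusted p = 0.0564), without DBP5 replicate 3 (0.0817) or without IPPK replicate 1 (0.0891). GLE1 siRNA lay above DBP5 siRNA by 0.27 (adjusted p = 0.0485), a call lost without any 1 of the DBP5 arrays (0.0505 to 0.137) and without GLE1 replicate 2 (0.127) or 3 (0.141), with quantile normalization (0.0564) and with no filter (0.0726).

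For UBAP2L A_33_P3361701 and A_23_P103837, DBP5 siRNA lay below GLE1 siRNA (0.38 and 0.47 for GLE1 minus DBP5, adjusted p = 0.00118 and 0.000680, limma) and below IPPK siRNA (-0.39 and -0.48 for DBP5 minus IPPK, adjusted p = 0.00131 and 0.000724). GLE1 and IPPK differed by -0.0060 and -0.012 there, with 95% CI of -0.17 to 0.16 and -0.20 to 0.17. At A_33_P3310989 all 3 knock-downs differed from one another, in the order DBP5, IPPK and GLE1 (-1.17, -0.69 and 0.48 for GLE1 minus DBP5, GLE1 minus IPPK and DBP5 minus IPPK, adjusted p = 2.45e-06, 0.000106 and 0.00181, limma).

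Several calls between knock-downs were lost with the methods' paired t-test after adjustment. Between GLE1 and DBP5 siRNA these were TIA1 A_24_P405430 (adjusted p = 0.0758), FMR1 A_24_P93967 (0.111) and UBAP2L A_33_P3361701 and A_23_P103837 (0.126 and 0.134). Between GLE1 and IPPK siRNA they were TIA1 A_23_P90845 (0.193) and FMR1 A_24_P40417 (0.114). Between DBP5 and IPPK siRNA they were the same 2 UBAP2L probes (0.120 and 0.0918), FMR1 A_24_P93967 (0.133) and A_24_P40417 (0.0619), TIA1 A_23_P90845 (0.119), the dim CAPRIN1 probe (0.165), USP10 A_23_P100196 (0.0545) and ELAVL1 (0.114).

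The other genes of the stress granule pathway were read from 4 lists by the brightest probe of each gene. Of 91 listed genes 89 were tested, and ELAVL3 and ELAVL4 did not pass the filter. After DBP5 siRNA 32 of 89 rose and 29 fell, where 27.3% and 27.1% of all 20821 genes did. After GLE1 siRNA 39 rose and 30 fell, beside 32% and 30.4%. After IPPK siRNA 25 rose and 26 fell, beside 27.3% and 28.2%. The lists' medians were 0.044, 0.047 and 0.0042 on the log2 scale, beside -0.020, 0.031 and -0.030 for all genes. The list changes that passed the threshold and were picked for description had standard errors of 0.044 to 0.17 on the log2 scale and adjusted p of at most 0.0467 (limma), and in 1 of 48 the knock-down arrays overlapped the control arrays. They were picked for having passed, so the low adjusted p and the little overlap follow in large part from that choice.

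**Figure D4:**
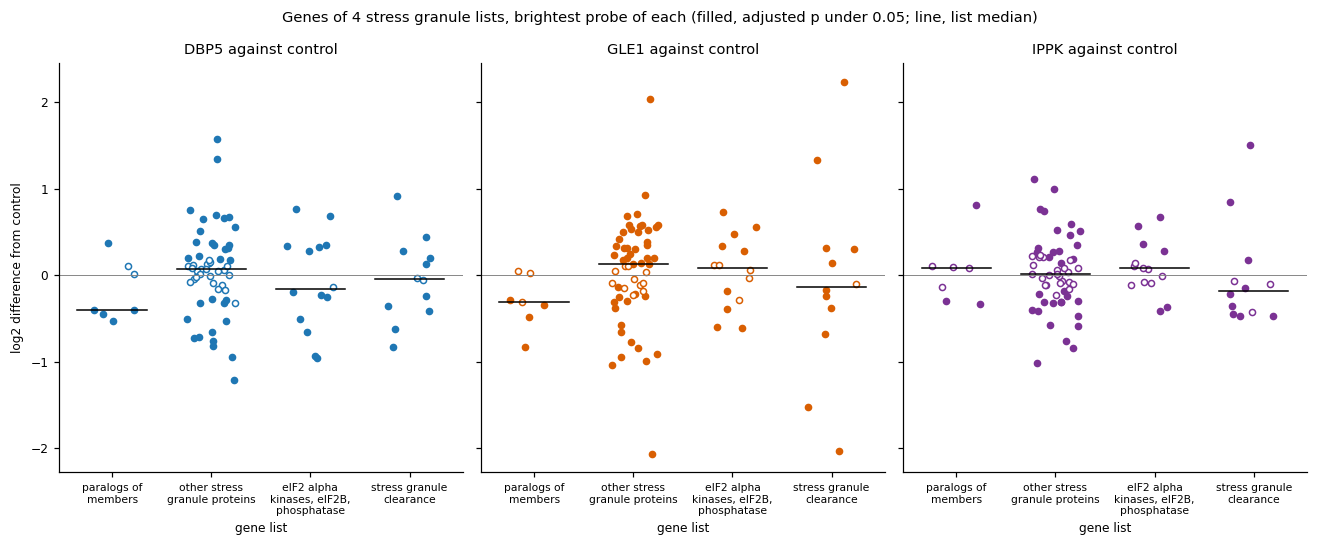
Log2 difference from control (vertical axis) of the genes of 4 lists (horizontal axis) after DBP5, GLE1 and IPPK siRNA, with 1 point per gene, filled at an adjusted p under 0.05, and a line at the list's median. Each list held genes on either side of 0, and YBX3 lies highest among the other stress granule proteins in all 3 panels.

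Among the paralogs of members, the FMR1 relatives FXR1 and FXR2 fell in all 3 knock-downs, as FMR1 itself did at 1 probe. FXR1 was 1.45-fold, 1.78-fold and 1.26-fold lower after DBP5, GLE1 and IPPK siRNA, and FXR2 1.32-fold, 1.27-fold and 1.23-fold lower. The FXR2 call after IPPK siRNA was lost without control replicate 3 (adjusted p = 0.0721) and without IPPK replicate 1 (adjusted p = 0.0782). CAPRIN2 fell 1.37-fold after DBP5 siRNA and 1.22-fold after GLE1 siRNA, the opposite way from CAPRIN1. ATXN2L fell 1.33-fold after DBP5 siRNA, where ATXN2 rose, and UBAP2 fell 1.40-fold after GLE1 siRNA. ELAVL2 rose 1.76-fold after IPPK siRNA, and its 1.30-fold rise after DBP5 siRNA (limma, adjusted p = 0.0467) was lost when control replicate 1 or 3, or DBP5 replicate 2 or 3, was left out, with the 75th percentile scaling (0.0551), with no filter (0.0697) and with the 6 arrays compared alone (0.0882). With the methods' paired t-test after adjustment, the calls of FXR2 (adjusted p = 0.154), CAPRIN2 (0.0713) and ELAVL2 (0.337) after DBP5 siRNA and of FXR1 (0.123), FXR2 (0.0763) and ELAVL2 (0.0782) after IPPK siRNA were lost. USP13 passed in no comparison. Of the 7 paralogs tested, 1 rose and 4 fell after DBP5 siRNA, 0 rose and 4 fell after GLE1 siRNA, and 1 rose and 2 fell after IPPK siRNA, with medians of -0.40, -0.32 and 0.086. Among all genes, 27.3%, 32% and 27.3% rose and 27.1%, 30.4% and 28.2% fell in these comparisons.

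Of 56 other stress granule proteins, 20 rose and 13 fell after DBP5 siRNA, 29 rose and 16 fell after GLE1 siRNA, and 17 rose and 16 fell after IPPK siRNA. The shares of all genes were 27.3%, 32% and 27.3% for rises and 27.1%, 30.4% and 28.2% for falls. YBX3, a cold-shock-domain mRNA-binding protein, rose 2.98-fold, 4.11-fold and 2.16-fold. IGF2BP2, which binds and stabilises mRNA, rose 2.54-fold after DBP5 siRNA, EIF4G2, a translation initiation factor, 1.90-fold after GLE1 siRNA, and DDX6, a helicase of P-bodies, 2.00-fold after IPPK siRNA. The largest falls after DBP5 siRNA were those of NUFIP2, a partner of FMR1 and G3BP (2.32-fold), and IGF2BP3 (1.93-fold). After GLE1 siRNA the largest fall was that of EIF3A, the largest eIF3 subunit (4.18-fold). After IPPK siRNA the largest falls were those of LSM14A, a P-body protein (2.01-fold), and PRRC2B, a granule protein (1.79-fold).

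The list of eIF2 alpha kinases, eIF2B and phosphatase holds the kinases that phosphorylate eIF2 alpha, which leads to granule assembly, and the exchange factor and phosphatase that restore initiation. Of its 14 genes, 6 rose and 7 fell after DBP5 siRNA, 5 rose and 4 fell after GLE1 siRNA, and 4 rose and 2 fell after IPPK siRNA. Over all genes, rises were 27.3%, 32% and 27.3% and falls 27.1%, 30.4% and 28.2%. After DBP5 siRNA, EIF2AK4, the kinase GCN2, rose 1.69-fold and EIF2B5, the catalytic subunit of eIF2B, 1.61-fold, and neither passed the methods' paired t-test (adjusted p = 0.0597 and 0.0583). EIF2S1, eIF2 alpha itself, fell 1.94-fold and PPP1R15B, the constitutive phosphatase adaptor, 1.91-fold. After GLE1 siRNA, PPP1CC, a phosphatase catalytic subunit, rose 1.66-fold and EIF2B5 1.47-fold, and PPP1R15B fell 1.53-fold and EIF2S1 1.51-fold. After IPPK siRNA, EIF2B5 rose 1.60-fold and PPP1CC 1.48-fold, and EIF2AK3, the kinase PERK, fell 1.33-fold and EIF2B3 1.29-fold.

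Of 12 genes of stress granule clearance, 5 rose and 5 fell after DBP5 siRNA, 5 rose and 6 fell after GLE1 siRNA, and 3 rose and 6 fell after IPPK siRNA. Here too 27.3%, 32% and 27.3% of all genes rose and 27.1%, 30.4% and 28.2% fell. ZFAND1, which brings the segregase VCP and the proteasome to arsenite-induced granules, rose 1.89-fold, 4.71-fold and 2.85-fold. DYRK3, a kinase that dissolves granules, rose 1.36-fold after DBP5 siRNA and 1.79-fold after IPPK siRNA, and HSPB8, a small heat shock protein, 2.51-fold after GLE1 siRNA. HSPA1A, an inducible HSP70, fell 1.54-fold, 4.07-fold and 1.38-fold. FAF2, a VCP adaptor, fell 1.77-fold after DBP5 siRNA and 2.88-fold after GLE1 siRNA, and BAG3, the partner of HSPB8, 1.38-fold after IPPK siRNA. HSPA1A has a near-identical copy in the genome, so its probe may read both.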

How the data were processed

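Cytoplasmic RNA of 12 samples was measured, 3 per siRNA, with groups and replicate numbers read from the sample labels. The authors deposited the output of Agilent Feature Extraction 10.7.3.1, which holds for each spot an intensity after subtraction of local background, the median intensities of spot and background, and flags. They also deposited a table of log2 values, for which the methods name LOESS normalization.

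The log2 of the background-subtracted intensity was normalized by cyclic loess. Outlier spots (169 to 358 of 43118 gene spots per array) were left out, and replicate spots were averaged. No array value of a member was dropped. Probes were named through accessions in RefSeq (GRCh38.p14, used for names because the array design gives hg19), and 26449 of 34127 matched. A probe was kept if, for at least 1 siRNA, all 3 arrays flagged it as well above background. Arrays give no molecule counts, and signal over background and their number limit the precision.

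All probes were fitted together by limma (version 3.58.1, R version 4.3.3) with a mean for each siRNA, two-sided, and Benjamini-Hochberg adjustment within each comparison at 0.05. The fit was run on simulated data with known changes, with limits that were loosened after its first output. Figures were drawn with matplotlib in Python. The genes named are all members, the siRNA targets, the paralogs of members, and for each list and comparison the 2 largest rises and 2 largest falls past the threshold. Some genes of the lists are not reported here. The members and lists were chosen with earlier results of these data known.

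The replicate number marks the slide. Deviations from the group means correlated at r = 0.310 to 0.486 across probes in the 18 pairs of arrays with the same number and different siRNAs, and at -0.263 to -0.040 in the 36 pairs with different numbers. Deviations within a group cancel, so the negative values follow in part from the positive ones. The positive values show that the numbers pair the arrays. The main fit left this pairing out, and the replicate block took it in.

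The alternatives tried were 75th-percentile scaling, quantile normalization, normexp with an offset of 50, the authors' processed table, no filter or a filter on all 12 arrays, the replicate block, the 6 arrays compared alone, 1 probe per gene, the paired t-test of the methods, and each array left out. The methods name the paired t-test for tests marked in the figure legends, and name rank-product lists for the arrays. Rank products were not run here. Set against the scanner values, the deposited log2 table followed the median spot intensity without background subtraction (r of at least 0.9998 across probes), and its columns have medians of 7.75 to 7.76. Normexp used the median spot signal, since the arrays' tables hold no mean. Protein, probe and transcript sequences were not used here.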

Additional observations from a re-analysis of the deposited data

How the results depend on the processing

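Of 1692 member probe values under the alternatives, 1598 kept their side of the threshold (29 of them, called in neither setting, with the other sign), 72 lost the call, 22 gained one and 0 called values reversed, and the methods' t-test after Benjamini-Hochberg lost most (22). G3BP2 and both CAPRIN1 probes kept the call in all 3 comparisons with control under every alternative run. With the methods' t-test after adjustment, 6 of 17 member probes passed for DBP5 against control and 5 for DBP5 against IPPK, and 23 and 30 of 89 list genes for DBP5 and IPPK against control. With the brightest probe per gene, 5 of 10 members passed for GLE1 against IPPK, since fewer probes were counted. The replicate block changed 4 member calls, which stand beside the results, and no other member call or call of a list gene picked for description, and it gave 62, 68 and 53 of 89 list genes past the threshold against control for DBP5, GLE1 and IPPK. The share of all probes past the threshold in these settings is not given here. The counts are therefore no result about the members or the lists. Of 969 values of list genes picked for description, 947 kept their side, 20 lost the call, 2 gained one and 0 reversed. Dim probes are limited by signal over background, as for CAPRIN1 A_33_P3302115.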
